A study of Homo sapiens with 4 samples.

Results

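Transcript levels are given for 10 genes, which are serum response factor (SRF) and known targets of it in the actin cytoskeleton and contractile apparatus. The genes were chosen by name from the 28058 genes of the count table, and all 10 were found. They are the actin genes ACTA2, ACTB and ACTG1, the transgelin gene TAGLN, the calponin genes CNN1 and CNN2, the caldesmon gene CALD1, the tropomyosin genes TPM1 and TPM2, and SRF. The samples were cultures labelled SH-SY5Y, an established human neuroblastoma cell line, of which 2 had received shock wave treatment (SWT) and 2 were untreated controls. SWT consisted of 300 impulses at 0.08 mJ/mm2 and 3 Hz, given through the medium of flasks held in a 37 °C water bath at 7 cm from the applicator, and RNA was isolated at 6 h. The series' design text instead mentions exosomes obtained with shock waves, and which of them was applied is not settled here. The labels do not say whether replicates were separate cultures, so the spread between them may be technical.

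SRF is a transcription factor that binds the CArG box, a short element of A and T bases flanked by C and G pairs. It works with partner proteins of the MRTF family, which are held in the cytoplasm by free actin monomers and enter the nucleus when actin polymerises, and with ternary complex factors (TCF), which respond to mitogen-activated kinases. MRTF partners favour genes of actin filaments and contraction, while TCF partners favour immediate early genes, and mechanical load on cells is a classical stimulus of the MRTF branch. In smooth muscle, the cofactor myocardin adds the contractile isoforms smooth muscle α-actin, calponin 1, transgelin and smooth muscle myosin.

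Promoter sequences are shown because the CArG box is the element that SRF binds. RefSeq promoter windows of GRCh38.p14, from 250 bases before to 50 bases after a transcript start, were matched by symbol for 8 of the 10 genes, in 14 windows. ACTB and TAGLN had no entry. A CArG box, taken as 2 C, 6 bases that are A or T, and 2 G, reads as the same pattern on both strands. It was found in 3 of the 14 windows, those of SRF, ACTG1 and CNN2, against 1.29% of all 35116 windows. SRF had 2 boxes in 1 window, which 0.0313% of all windows had. A looser form with 1 C or G among the middle 6 bases was found in 1 ACTA2 window and 1 CALD1 window, against 6.94% of all windows. The first base of each box lay 30 and 10 bases before the start in SRF, 94 bases before it in ACTG1 and 89 bases before it in CNN2, and the looser matches lay 121 and 71 bases before it in ACTA2. The 150 bases before the start follow for these 4 windows, 5′ to 3′ on the gene's strand, with the boxes and looser matches in capitals. The looser match of CALD1 lay 26 bases before the start, and its window is not printed. A match describes the letters only.
SRF (chr6:43171119-43171268, plus strand): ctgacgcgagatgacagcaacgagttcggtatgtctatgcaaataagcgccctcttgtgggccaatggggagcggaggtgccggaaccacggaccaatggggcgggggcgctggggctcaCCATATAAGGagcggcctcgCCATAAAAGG
ACTG1 (chr17:81512800-81512949, minus strand): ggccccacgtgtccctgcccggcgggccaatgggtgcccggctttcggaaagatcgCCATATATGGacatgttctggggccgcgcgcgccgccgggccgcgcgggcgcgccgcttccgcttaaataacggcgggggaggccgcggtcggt
CNN2 (chr19:1026458-1026607, plus strand): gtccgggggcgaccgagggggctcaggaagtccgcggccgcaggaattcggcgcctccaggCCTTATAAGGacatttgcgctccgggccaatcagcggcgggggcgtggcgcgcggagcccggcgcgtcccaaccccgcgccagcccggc
ACTA2 (chr10:88952774-88952923, minus strand): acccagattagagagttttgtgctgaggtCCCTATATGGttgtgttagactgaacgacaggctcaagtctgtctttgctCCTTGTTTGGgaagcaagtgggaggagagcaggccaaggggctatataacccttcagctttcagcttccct

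Total counts were 10043697 and 11686808 in the SWT libraries, against 11647603 and 9888263 in the control libraries. A count of 0 allows a level of up to 0.257 to 0.303 CPM (counts scaled to the library total), depending on the library and for counting error only. Noradrenergic genes gave a mixed picture for the label. TH and DBH, enzymes of catecholamine synthesis, CHGA and SLC18A2 had no count in any library, while the transcription factor gene HAND2 stood at 54.2 and 48.9 CPM in SWT, against 52.3 and 52.7 CPM in control and GATA2 lay between 13.2 and 19.0 CPM over the 4 libraries. Of 15 mesenchymal and fibroblast genes, 10 reached 10 CPM in every library, led by VIM, COL1A1 and COL3A1. Heart muscle transcripts were highest in control replicate 2: 28 such genes summed to 606 and 306 counts in SWT replicates 1 and 2, against 256 and 4176 counts in control replicates 1 and 2. Without control replicate 2, 6 of the 9 tested members lay below 0 and their median log2 fold change was -0.029, against 8 of the 9 and -0.019 with all 4 libraries.

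The cytoplasmic actins ACTG1 and ACTB build the microfilaments of nearly every non-muscle cell. ACTG1 (GRCh38, chromosome 17, 81509971 to 81523847) ranked first and ACTB (chromosome 7, 5527147 to 5563784) ranked 2nd of 28058 genes by mean CPM, and per length of the longest transcript they ranked 2nd and 4th of 25694. Together they took 1.37% and 1.41% of all counts in the SWT libraries, against 1.42% and 1.44% in the control libraries. ACTG1 stood at 7674 and 7946 CPM in SWT, against 8161 and 8160 CPM in control. Both SWT libraries thus lay below both controls, by a log2 fold change of -0.064 (SE 0.034, 95% interval -0.14 to 0.0077, edgeR adjusted p = 0.851). ACTB stood at 5978 and 6218 CPM in SWT, against 6106 and 6248 CPM in control, and the groups overlapped (log2 fold change -0.019, SE 0.036, edgeR adjusted p = 0.969). The ratio of ACTB to ACTG1 counts was 0.779 and 0.783 in SWT, against 0.748 and 0.766 in control. These groups did not overlap, and the exact two-sided permutation p of 0.333 is the smallest that 2 libraries against 2 can give. Both genes have many processed copies in the genome, whose reads a counter can assign wrongly. The named copies in the table were low: ACTG1P20, the highest, had 43 and 33 counts in SWT and 35 and 25 in control. No copy under an ACTBP name was in the count table. Low counts of the copies do not show how reads of ACTG1 and ACTB were assigned, which was not tested.

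The smooth muscle actin gene ACTA2 (chromosome 10, 88935074 to 88991339) is a marker of smooth muscle cells and myofibroblasts. Scaled by the longest transcript, it held 0.747% to 0.814% of the actin family's level over the 4 libraries. With the median transcript length it held 0.577% to 0.630%, and with the longest principal transcript 0.696% to 0.759%. It had 621 and 772 counts in SWT, against 796 and 703 counts in control. Its CPM values were 61.6 and 66.2 in SWT, against 68.5 and 71.0 in control, so the groups did not overlap. The log2 fold change of -0.12 (SE 0.071, 95% interval -0.27 to 0.025) was the largest in size among the tested members, and it did not pass (edgeR adjusted p = 0.870). Leaving out each library in turn moved it between -0.18 without SWT replicate 2 and -0.075 without SWT replicate 1, with -0.097 without control replicate 2. ACTA2 made up 0.449% (exact Clopper-Pearson 95% interval 0.414% to 0.485%) and 0.465% (0.433% to 0.499%) of all actin gene counts in the SWT libraries, against 0.478% (0.445% to 0.512%) and 0.489% (0.453% to 0.526%) in the control libraries. In bulk RNA, fewer cells with ACTA2 and less ACTA2 RNA per cell cannot be told apart. FAS, STAMBPL1 and ACTA2-AS1 overlap ACTA2 on the opposite strand, and the strand setting of the counting is not given in the sources used here. ACTA2-AS1 had 8 and 0 counts in SWT, against 1 and 0 in control.

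The other muscle actins were close to absent outside the libraries with more heart muscle transcripts. ACTC1, the main actin gene of heart muscle, had 68 and 2 counts in SWT replicates 1 and 2, against 0 and 524 in control replicates 1 and 2. ACTA1, of skeletal muscle, followed the same libraries with 25 and 1 counts in SWT, against 2 and 35 in control. ACTG2, of enteric smooth muscle, had 6 and 2 counts in SWT, against 5 and 3 in control. The fitted log2 fold change of -2.97 for ACTC1 rested on control replicate 2 (SE 1.05, edgeR adjusted p = 0.838), and ACTG2 was below the filter on low counts. ACTC1 and ACTA1 are close paralogs of ACTA2, so reads may be shared between them. In control replicate 2 the heart muscle actin count of 524 compares with 703 for ACTA2, and its part in the ACTA2 count was not tested.

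**Figure D1:**
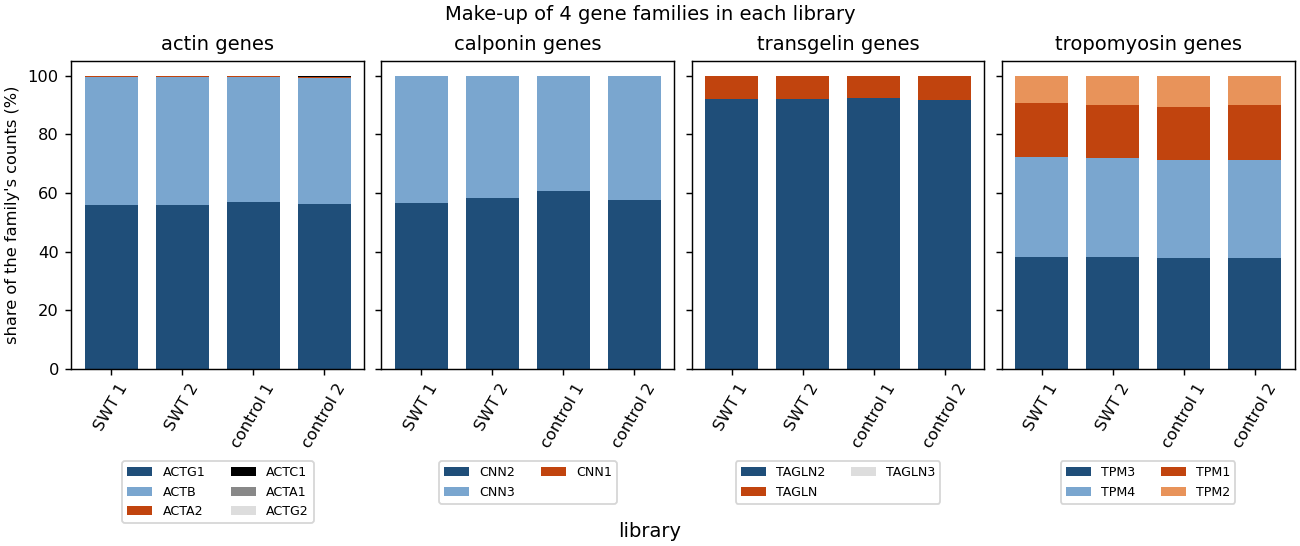
Share of each gene in the summed counts (%, not scaled by length) of the actin, calponin, transgelin and tropomyosin families, one bar for each library. ACTG1 and ACTB fill nearly the whole actin bar in all 4 libraries, ACTA2 is the thin layer above them, CNN1 and TAGLN3 are too small to see, and TPM3 and TPM4 are the larger layers among tropomyosins.

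Calponins and transgelins are actin-binding proteins of a shared fold, with a contractile member (CNN1, TAGLN) and broadly expressed relatives (CNN2, CNN3, TAGLN2). The contractile calponin CNN1 (chromosome 19, 11538717 to 11550323) had 1 count in each SWT library, against 1 and 9 counts in the control libraries, and it was left out of the test by the filter. CNN2 (chromosome 19, 1026581 to 1039068) carried the family together with CNN3. CNN2 stood at 382 and 406 CPM in SWT, against 411 and 422 CPM in control. Both SWT libraries lay below both controls and the log2 fold change was -0.081 (SE 0.054, edgeR adjusted p = 0.893). CNN3, which is not on the list of 10, stood at 292 and 291 CPM in SWT, against 266 and 308 CPM in control, a log2 fold change of 0.020 (edgeR adjusted p = 0.988). CNN2 made up 56.7% and 58.3% of calponin counts in SWT, against 60.7% and 57.7% in control, so its share overlapped between the groups.

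TAGLN (chromosome 11, 117199321 to 117204782), also called SM22α, is an early marker of smooth muscle differentiation. It stood at 74.9 and 77.5 CPM in SWT, against 72.1 and 80.5 CPM in control. The SWT libraries lay between the controls, and the log2 fold change was 0.0021 (SE 0.072, 95% interval -0.15 to 0.15, edgeR adjusted p = 0.998). Without control replicate 2, its highest library, it was 0.083. Its relative TAGLN2 held 92.0% and 91.9% of transgelin counts in SWT, against 92.4% and 91.8% in control, and the neuronal relative TAGLN3 had 0 counts in every library. PCSK7 overlaps TAGLN on the opposite strand, with 672 and 836 counts in SWT, against 851 and 732 in control.

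Tropomyosins lie along the actin filament and govern access of myosin, and caldesmon inhibits the myosin ATPase on it. TPM1 (chromosome 15, 63042632 to 63071915) stood at 546 and 548 CPM in SWT, against 528 and 577 CPM in control, with the controls on either side of the SWT libraries (log2 fold change -0.015, SE 0.054, edgeR adjusted p = 0.989). CALD1 (chromosome 7, 134744252 to 134970728) showed the same order, with 284 and 287 CPM in SWT, against 273 and 302 CPM in control (log2 fold change -0.0091, SE 0.059, edgeR adjusted p = 0.996). TPM2 (chromosome 9, 35681992 to 35690121) differed from them: it stood at 275 and 301 CPM in SWT, against 310 and 302 CPM in control, so that both SWT libraries lay below both controls, SWT replicate 2 only just. Its log2 fold change was -0.089 (SE 0.058, 95% interval -0.21 to 0.033, edgeR adjusted p = 0.888). Without control replicate 2 the log2 fold change was 0.051 for TPM1, 0.065 for CALD1 and -0.11 for TPM2. Without control replicate 1 it was -0.077 for TPM1, -0.079 for CALD1 and -0.069 for TPM2. TPM1 is also expressed in heart muscle, and a part of heart muscle RNA in its counts was not tested.

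The broadly expressed tropomyosins TPM3 and TPM4 held most of the counts of that family. TPM3 made up 38.0% and 38.1% of tropomyosin counts in SWT, against 37.7% and 37.8% in control, and TPM4 made up 34.2% and 33.8% in SWT, against 33.6% and 33.5% in control. TPM1 made up 18.5% and 18.1% in SWT, against 18.1% and 18.9% in control, and TPM2 made up 9.31% and 9.93% in SWT, against 10.6% and 9.89% in control. Scaled by the longest transcript, TPM4 held 34.4% to 35.6% and TPM1 14.6% to 15.3% over the 4 libraries, and scaled by the longest principal transcript TPM4 held 20.9% to 21.5% and TPM1 27.5% to 28.5%. The order of the isoform genes within the family therefore depended on the transcript length assumed. Differences between the groups in these family shares, over the 16 genes of 4 families, gave exact two-sided permutation p-values of 0.333 or more, which is the limit of the design.

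SRF (chromosome 6, 43171299 to 43181507), whose own promoter carries the pair of CArG boxes shown above, had 791 and 1028 counts in SWT, against 991 and 823 counts in control. In CPM this was 78.5 and 88.2 in SWT, against 85.3 and 83.1 in control. The SWT libraries lay outside the controls, 1 on each side, and the log2 fold change was -0.014 (SE 0.071, 95% interval -0.16 to 0.13, edgeR adjusted p = 0.995). The MRTF partner genes MKL1 and MKL2, which encode MRTF-A and MRTF-B, were both expressed. MKL1 stood at 21.8 and 22.3 CPM in SWT, against 24.5 and 22.7 CPM in control (log2 fold change -0.10, SE 0.10), and MKL2 at 43.5 and 41.3 CPM in SWT, against 45.0 and 43.8 CPM in control (log2 fold change -0.070, SE 0.078). MYOCD, encoding myocardin, had 0 counts in both SWT libraries, against 0 and 2 counts in control. The TCF genes ELK1, ELK3 and ELK4 were all expressed, and ELK4 stood at 102 and 97.6 CPM in SWT, against 92.1 and 95.1 CPM in control (log2 fold change 0.090, SE 0.064, edgeR adjusted p = 0.900).

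Levels of the 10 genes were ordered per length of the longest transcript. ACTG1 averaged 10702 ± 228 and ACTB 8267 ± 136 length-scaled CPM (SD, n = 4 libraries). TPM2 at 568 ± 25.6, CNN2 at 541 ± 19.1 and TPM1 at 420 ± 14.9 followed, then CALD1 at 202 ± 8.16 and ACTA2 at 150 ± 7.87, and TAGLN at 69.9 ± 3.27 and SRF at 60.3 ± 2.82 (SD, n = 4 libraries). CNN1 ranged from 0.140 to 1.48. Over the 4 libraries, TPM2 and CNN2 were the only neighbours in this order whose ranges overlapped. With the longest principal transcript TPM1 averaged 1352 and came next after the actins, and with the median transcript length ACTB came before ACTG1. ACTA2, TAGLN, SRF and CNN1 held places 7 to 10 with all 3 lengths.

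**Figure D2:**
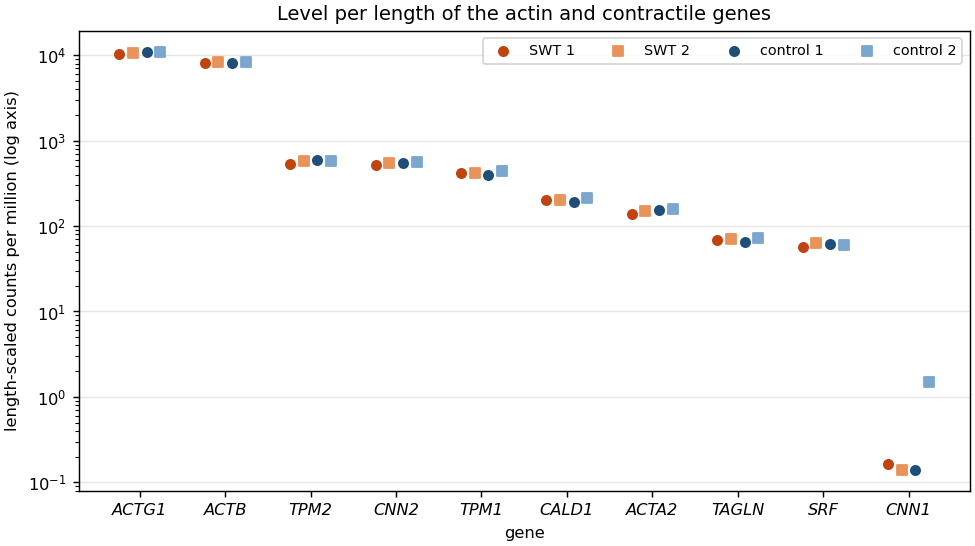
Length-scaled CPM (log axis) of the 10 genes in each library, scaled by the longest GENCODE transcript. The 4 points of a gene lie close together relative to the span between genes, except for CNN1, where control replicate 2 stands at 1.48 and the other libraries lie between 0.140 and 0.164.

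Smooth muscle markers were in part expressed and in part at 0. Of 16 smooth muscle and pericyte markers, MYH11, the smooth muscle myosin heavy chain, ITGA8 and KCNMB1 had 0 counts in all 4 libraries and were among the 5 that stayed under 1 CPM in every library. Another 5 of the 16 were at 10 CPM or more in every library, among them SMTN, encoding smoothelin, at 65.8 and 69.5 CPM in SWT, against 59.1 and 63.6 CPM in control. The list summed to 285 and 304 CPM in SWT, against 301 and 315 CPM in control, and its highest genes were SYNM, NOTCH3 and SMTN. DES, encoding the muscle intermediate filament protein desmin, had 79 and 40 counts in SWT, against 42 and 321 in control, and so followed the libraries with heart muscle transcripts. MYL9, the regulatory myosin light chain paired with smooth muscle myosin, had 3 and 0 counts in SWT, against 0 and 59 in control. The non-muscle light chains MYL12A and MYL12B were abundant instead, with MYL12A at 386 and 393 CPM in SWT, against 366 and 416 CPM in control. The non-muscle heavy chain MYH9 stood at 793 and 841 CPM in SWT, against 849 and 763 CPM in control.

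Comparing SWT with control asks whether the actin and contractile SRF genes responded to the treatment at 6 h. None of the 9 tested genes passed edgeR's quasi-likelihood test at an adjusted p of 0.05, and 0% of the 12399 genes tested passed in either direction. At an unadjusted p under 0.05 there were also 0 of the 9, where 2.81% of all tested genes were higher and 2.96% lower. At that level DESeq2, without this filter, gave 0 of 10 members and 116 of 17737 genes. Limma-voom gave 0 of the 9 and 721 of 12399 genes. By value, 8 of the 9 lay below 0, as did 6238 of the 12399 genes tested, and their median was -0.019 on the log2 scale, against -7.8e-04 for all genes tested. The 95% intervals of the 9 genes ran from -0.27 at the lowest to 0.15 at the highest, so larger shifts lay outside them. These intervals rest on the spread between replicates, which may be technical, so they may be too narrow for separate cultures. The count below 0 was 6 of the 9 without control replicate 2, without SWT replicate 1 and with the dependence on length and GC taken out, and 9 of the 9 with upper-quartile scaling and without SWT replicate 2. Both SWT libraries lay below both controls for 4 of the 9 (ACTA2, ACTG1, CNN2 and TPM2), where this held for 18% of all genes tested, and above both controls for 0 of the 9, where it held for 17.3%. Members of a shared regulatory programme are not independent of each other, and these counts describe the list only.

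**Figure D3:**
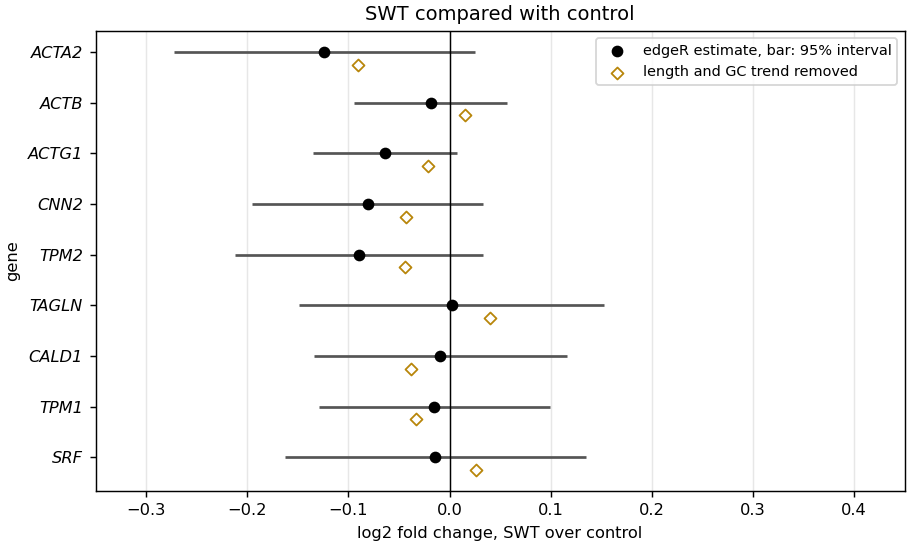
Log2 fold change of SWT over control for the 9 tested genes, as the edgeR estimate with its 95% interval (filled points and bars) and with a smooth dependence on transcript length and GC fitted to each library taken out (open diamonds). Every interval includes 0, and the diamonds of ACTA2, ACTB, ACTG1, CNN2 and TPM2 lie closer to 0 than their points, while those of TAGLN, CALD1, TPM1 and SRF lie farther from it.

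The spread between replicates was as large as these shifts. For 7 of the 9 genes (77.8%), the difference between replicates in at least 1 group exceeded the difference between groups, as it did for 76.7% of all genes tested. ACTA2 and ACTG1 were the exceptions: ACTG1 differed by 0.050 between the SWT libraries and by -1.7e-04 between the control libraries on the log2 scale (replicate 2 minus 1). SWT replicate 1 gave the lowest value of ACTA2, ACTB, ACTG1, CNN2, TPM2 and SRF. TAGLN, CALD1 and TPM1 were instead lowest in control replicate 1 and highest in control replicate 2, with differences of 0.16, 0.14 and 0.13 between the controls. In the pair with few heart muscle counts, SWT replicate 2 minus control replicate 1, the log2 difference was -0.049 for ACTA2 and -0.039 for ACTG1. It was -0.017 for CNN2 and -0.045 for TPM2. Both SWT libraries lay below both controls for these genes, so a negative sign in this pair was fixed by that order. The difference was 0.11 for TAGLN, 0.070 for CALD1, 0.052 for TPM1, 0.048 for SRF and 0.026 for ACTB.

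**Figure D4:**
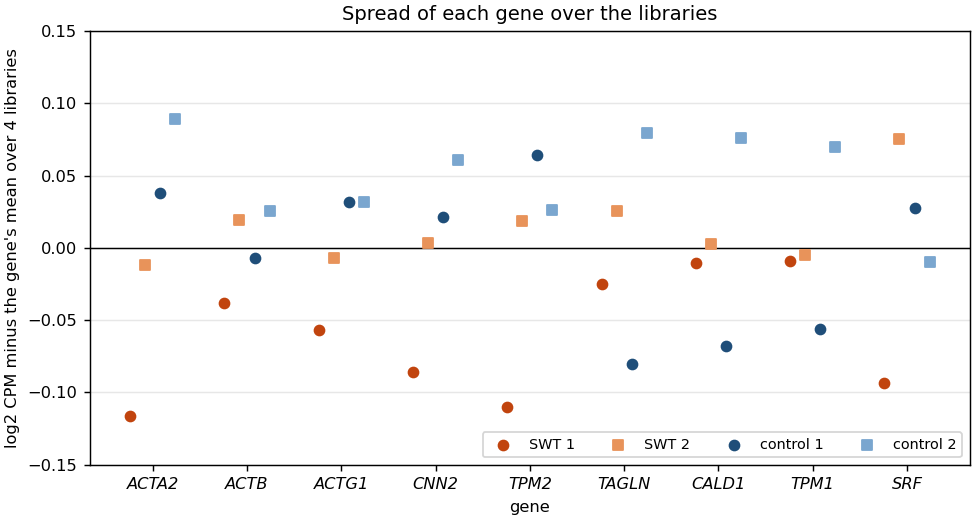
Log2 CPM of each tested gene in each library, minus the gene's mean over the 4 libraries. SWT replicate 1 is the lowest point of ACTA2, ACTB, ACTG1, CNN2, TPM2 and SRF, while for TAGLN, CALD1 and TPM1 the control libraries mark both ends of the range.

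GC content moved with differences between libraries, within groups as well as between them. Over 6271 well-expressed genes (mean log2 CPM over 5), SWT minus control had a Spearman correlation of -0.404 with GC content across genes, which are not independent replicates. Between replicates the correlation was 0.381 for SWT replicate 2 minus 1 and -0.484 for control replicate 2 minus 1. The genes lower in both SWT libraries had GC contents of 51.8% (ACTA2), 57.8% (ACTG1), 56.0% (CNN2) and 55.3% (TPM2), and the genes whose groups overlapped had 41.6% (CALD1), 45.9% (TPM1), 55.1% (ACTB), 57.2% (TAGLN) and 60.9% (SRF). The ranges of GC content of these 2 sets overlapped. With the dependence on length and GC taken out of each library, the log2 fold change was -0.021 for ACTG1, -0.043 for CNN2, -0.044 for TPM2 and -0.090 for ACTA2. It was 0.016 for ACTB, 0.026 for SRF, 0.040 for TAGLN, -0.033 for TPM1 and -0.038 for CALD1, so that ACTB and SRF lay on the other side of 0 than without the removal.

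Genes that act with the actin and contractile list were described by the same fit, and 0 genes of any of these 6 lists passed. Of all 12399 genes tested, 6161 lay above 0. The paralogs numbered 6 tested of 8, with 3 above 0, 3 below and a median log2 fold change of -0.0079. SRF cofactors and actin-linked regulators numbered 13 tested of 17, with 9 above 0 and a median of 0.033. Its smallest p-values belonged to ELK4, GATA6 and FHL2, the last 2 with log2 fold changes of -0.53 and 0.070. The lists of actomyosin genes (13 tested of 16, 9 above 0, median 0.013) and of actin monomer and filament regulators (29 tested of 29, 14 above 0, median -0.0038) were also centred near 0.

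Known targets of SRF with MRTF, a list that excludes the 10 genes, numbered 25 tested of 26. Of these 25, 20 lay above 0, and the median log2 fold change was 0.023. Over all genes 6161 of 12399 lay above 0, while of the 9 tested genes among the 10 left out, 8 lay below 0. Both SWT libraries lay above both controls for 8 of the 25, where this held for 17.3% of all genes tested. Its smallest p-values belonged to CTGF, CYR61 and ANKRD1, matricellular and nuclear proteins that YAP also regulates. CTGF stood at 244 and 249 CPM in SWT, against 164 and 221 CPM in control, and CYR61 at 506 and 509 CPM in SWT, against 367 and 464 CPM in control. ANKRD1 stood at 279 and 280 CPM in SWT, against 178 and 266 CPM in control. For all 3 genes control replicate 1 was the lowest library, and none passed (edgeR adjusted p = 0.769 for CTGF, 0.821 for CYR61 and 0.838 for ANKRD1).

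Targets of SRF with TCF, mostly immediate early genes, numbered 8 tested of 12, and 4 of the 12 stayed under 1 CPM in every library, among them FOS. Of the 8 tested, 6 lay above 0, against 6161 of 12399 over all genes. The median log2 fold change of the 8 was 0.14. CYR61 belongs to this list as well. IER2 stood at 71.8 and 77.3 CPM in SWT, against 67.1 and 64.5 CPM in control (log2 fold change 0.18, SE 0.070, edgeR adjusted p = 0.838). MCL1, encoding a survival protein of the BCL2 family, stood at 472 and 448 CPM in SWT, against 414 and 439 CPM in control (log2 fold change 0.11, SE 0.055, edgeR adjusted p = 0.843). FOS, the classical SRF and TCF target, was near the detection limit, with 7 and 9 counts in SWT, against 5 and 7 in control.

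Among actomyosin genes the smallest p-values belonged to MYL6, ROCK2 and RHOC. MYL6, the essential myosin light chain, stood at 643 and 663 CPM in SWT, against 722 and 700 CPM in control (log2 fold change -0.12, SE 0.049, edgeR adjusted p = 0.838). ROCK2, a kinase that acts on myosin light chain phosphatase, stood at 117 and 111 CPM in SWT, against 102 and 107 CPM in control. RHOC stood at 255 and 259 CPM in SWT, against 279 and 266 CPM in control. Among actin monomer and filament regulators they belonged to the formin genes DIAPH3 and DIAPH1, whose products nucleate actin filaments, and to GSN, encoding the severing protein gelsolin. DIAPH3 stood at 97.5 and 91.0 CPM in SWT, against 70.3 and 88.0 CPM in control (log2 fold change 0.26, SE 0.086, edgeR adjusted p = 0.838). DIAPH1 stood at 210 and 216 CPM in SWT, against 199 and 186 CPM in control (log2 fold change 0.14, SE 0.059, edgeR adjusted p = 0.838), and GSN at 37.1 and 47.9 CPM in SWT, against 45.9 and 53.4 CPM in control.

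**Figure D5:**
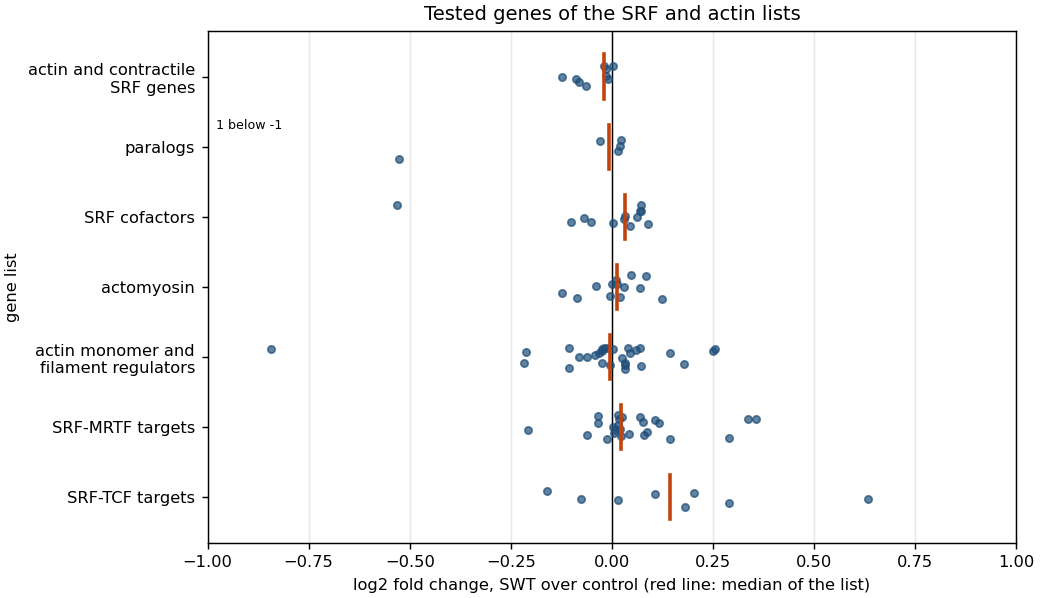
Log2 fold change of SWT over control (edgeR) for every tested gene of the 10-gene list and of the 6 related lists; the line marks each list's median, and the position of points within a row has no meaning. Medians lie between -0.019 and 0.033 except for the SRF-TCF targets at 0.14, and ACTC1, at -2.97 among the paralogs, lies outside the axis.

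The mean pattern of the 9 tested genes over the libraries was -0.060 and 0.014 in SWT replicates 1 and 2, against -0.0033 and 0.050 in control replicates 1 and 2, in log2 CPM around each gene's mean. Of 6317 other genes with a mean log2 CPM above 5, those closest to it by root mean square distance over the 4 libraries were RLIM (0.0016), NOB1 (0.0036), LOC100129034 (0.0053), ADK (0.0066) and DDX39A (0.0080), where the median over those genes was 0.068. The 9 genes themselves lay between 0.017 (ACTB) and 0.048 (SRF) from their own mean, to which each of them contributes. The 5 genes were picked as the closest of 6317, so their smaller distances follow from that choice.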

How the data were processed

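RNA of 2 SWT and 2 control samples was sequenced after a stranded mRNA library preparation, as the labels state. The authors deposited raw counts per gene symbol (28058 genes) and a table of log2 values (17151 genes) whose transform is not stated. Trimmomatic 0.36, FastQC 0.11.5, STAR 2.5.3a, HTSeq, DESeq2 and the build hg38 are named without roles in the submitters' processing notes. The sources used here do not name the annotation or the strand setting.

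The test was that of edgeR 4.0.16, run under R 4.3.3 (TMM, filterByExpr, quasi-likelihood F-test, Benjamini-Hochberg over 12399 genes). CPM values use TMM-scaled library sizes. Standard errors divide the size of the log2 fold change by the root of F, and intervals use a t quantile, so both are approximate. Log2 differences between libraries add 0.5 to each count. Total counts were 9888263 to 11686808 per library, and intervals of shares cover counting error only. Coordinates, lengths and GC content are from GENCODE 29 (GRCh38), with length and GC known for 97.4% of tested genes. Promoter sequences are RefSeq's. The fit and the trend removal (natural splines with 4 degrees of freedom, fitted above a mean log2 CPM of 5) were tested on simulated data. A log2(value + 1) step was held in reserve for the second table, and its values were tested with limma 3.58.1 as they stand. Alternatives also used DESeq2 1.42.0 and limma-voom, and figures Python 3.11.15 with matplotlib 3.10.9.

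The members, lists and tests were chosen with earlier results of these data known. All 10 genes and their 8 paralogs were named. From each further list the 3 genes with the smallest p were named, with cofactors above 1 CPM, marker genes at 0 or among the 3 highest, and the 5 genes nearest in pattern. FOS, MYL9, MYL12A, MYL12B, MYH9, DES and ACTG1P20 were named after their values were seen. Some items are not reported here.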

Additional observations from a re-analysis of the deposited data

How the results depend on the processing

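None of the 9 tested genes (10 where no filter applied) was called under any alternative run (other scalings and filters, DESeq2, limma-voom, the deposited log2 values, the block, trend removal, a threshold of 0.1, each library left out), and their adjusted p-values ranged from 0.390 upwards. Over all genes, the 0 higher and 0 lower became 20 and 43 without a filter, 1 higher with the length and GC trend taken out, and 2 to 106 higher and 15 to 97 lower with each library left out in turn, a lone library being taken to vary as the other group does. The highest counts, 106 and 97, were without control replicate 2, against 60 and 63 without control replicate 1, 5 and 39 without SWT replicate 1 and 2 and 15 without SWT replicate 2. The cause was not tested. With the replicate block 1 gene was lower, and with the block and trend removal together 26 were higher and 20 lower. The main fit had no block because replicate numbers are not stated to mark a shared day or culture. Same-numbered deviations correlated at -0.283 over 6302 genes, which does not settle whether the numbers mark pairs. The crossed pairing, added after the data were seen, gave 55 higher and 42 lower.

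The members' median of -0.019 lay, with 1 library left out in turn, between -0.088 when SWT replicate 2 was left out and -0.013 when SWT replicate 1 was; it was -0.077 without control replicate 1, and was 0.026 in the pair of SWT replicate 2 and control replicate 1, added after the data were seen. Of 135 single fold changes refitted under alternatives, 122 kept their sign and 13 did not, for ACTB, TAGLN, CALD1, TPM1 and SRF, all uncalled. With each library left out, list medians ranged from -0.063 to 0.092 for paralogs, -0.012 to 0.041 for SRF cofactors, -0.031 to 0.054 for actomyosin genes, -0.022 to 0.0055 for actin regulators, 0.020 to 0.064 for SRF-MRTF targets and 0.083 to 0.15 for SRF-TCF targets. The principal-transcript lengths were added after the data were seen. With 2 libraries a group, the intervals of the 9 tested genes ran from -0.27 at the lowest to 0.15 at the highest. Every one of them included 0, so the direction of a shift was not resolved for any of these genes.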
